A study of Mus musculus with 9 samples.

Results

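Runx2, Dlx5, Msx1, Msx2, Twist1, Postn, Spp1, Cdh11 and Alpl are regulators of osteoblast formation and genes used early in bone formation. These 9 genes were taken by name from a table of 54532 genes measured by RNA sequencing in ST2 cells, a mouse bone marrow stromal line that can form osteoblasts. The study asked how O-GlcNAcylation, the addition of a single sugar to proteins by the enzyme OGT, bears on the osteogenic response to a Wnt ligand. Polyadenylated RNA of 9 libraries was sequenced, 3 from each of 3 groups, and the numbers of reads assigned to each gene were compared.

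All 9 libraries came from the wild-type (WT) ST2 line, labelled as mesenchymal stem cells from bone, and were taken at 72 h. The Veh group received vehicle. The rhWnt3a group received recombinant human Wnt3a at 50 ng/ml. The rhWnt3aOSMI group is named in its titles for rhWnt3a together with OSMI, an inhibitor of OGT, while its treatment label names only OSMI at 20 μM. The study's results describe this group as rhWnt3a combined with OSMI, while its methods for the sequencing list OSMI without rhWnt3a. It is treated here as the combination, with a dose of rhWnt3a that its own label does not state. The Wnt target Axin2 had 203, 185 and 297 counts in these libraries, 355, 296 and 315 in rhWnt3a, and 4, 14 and 10 in Veh. A group given OSMI without rhWnt3a was not analysed here, so on that reading rhWnt3aOSMI against rhWnt3a asks about the inhibitor in the presence of the ligand, and rhWnt3a against Veh about the ligand. The study calls the 3 libraries of a group biological replicates. ST2 is a single cell line, so p-values measure the spread between these libraries of that line.

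The summed counts ranged from 16135898 in rhWnt3aOSMI replicate 1 to 17583945 in Veh replicate 3. In each group 1 library stood apart from the other pair. The mean squared difference in log2 CPM (a gene's counts scaled to a common library total) was 0.118 between Veh replicates 1 and 2 but 0.454 and 0.392 between each of these and replicate 3. The closest pair was replicates 1 and 3 in the rhWnt3a group, at 0.111, and replicates 1 and 2 in the rhWnt3aOSMI group, at 0.119. The first axis of the deviations from the group means held 54.8% of the variance within groups. Scores on it were 42.1 for Veh replicate 3, 41.5 for rhWnt3a replicate 2 and 19.2 for rhWnt3aOSMI replicate 1, with rhWnt3aOSMI replicate 2 just below the last. The other 5 libraries had scores from -36.8, in rhWnt3aOSMI replicate 3, to -17.8, in Veh replicate 2. These scores followed gene length: across the 14004 genes tested, which are not independent replicates, Spearman's rho between a library's deviation and gene length was -0.326 in Veh replicate 3 and -0.458 in rhWnt3a replicate 2, but 0.311 in Veh replicate 1 and 0.379 in rhWnt3aOSMI replicate 3. Short transcripts were therefore relatively high, and long ones relatively low, in the 4 libraries with positive scores. Results were also computed without the 3 libraries that stood apart (Veh replicate 3, rhWnt3a replicate 2 and rhWnt3aOSMI replicate 3). The 2 rhWnt3aOSMI libraries left then have positive scores and the 4 others negative ones. Scores are taken from each group's own mean, so these signs follow from which library was left out. They do not place the groups against each other, and in those 6 libraries the axis and the rhWnt3aOSMI group cannot be told apart.

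Osteoblasts arise from mesenchymal stromal cells. RUNX2 is the transcription factor that commits such cells to the osteoblast lineage, DLX5 and the MSX proteins are homeodomain factors that act around it downstream of BMP signals, and TWIST1 is a basic helix-loop-helix factor known to hold RUNX2 activity back in early progenitors. Periostin and osteopontin, encoded by Postn and Spp1, are secreted matrix proteins, cadherin 11 joins mesenchymal cells to each other, and the alkaline phosphatase encoded by Alpl supplies phosphate for mineral. In canonical Wnt signaling, a ligand such as WNT3A stabilizes beta-catenin, which then acts with TCF and LEF factors on target genes.

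The labelled cell type was checked on markers. Of 10 stromal markers, 8 passed the filter on low counts, but Thy1 and Lepr had at most 4 counts in any library. The summed level of the 10, led by Col3a1, was 7454, 7543 and 6986 CPM in Veh, 4723, 4662 and 4738 CPM in rhWnt3a, and 2140, 2135 and 3369 CPM in rhWnt3aOSMI, so the groups did not overlap and rhWnt3aOSMI was lowest. Single stromal markers differed from this sum. Pdgfrb had means of 876, 847 and 798 CPM in Veh, rhWnt3a and rhWnt3aOSMI. Pdgfra had means of 268, 311 and 192 CPM in the same order. Defining markers of blood and endothelial cells were at or near 0: Itgam had no count, Ptprc at most 2, and Cdh5 and Kdr at most 1. The most abundant of the 5 blood markers was Cd68, with at most 30 counts, and of the 4 endothelial markers Tek, with at most 14, and the summed level of neither list was above 1.98 CPM in any library. Later genes of the osteoblast program were also near 0, with at most 2 counts of Sp7, 3 of Ibsp and 8 of Bglap in any library. The name osteoblast regulators therefore describes the genes and not a mature osteoblast state of the cells. Chondrocyte, smooth muscle and adipocyte markers were measurable, and their summed levels lay lower in both treated groups than in Veh. Summed over 10 chondrocyte markers, of which Matn1 was at 0 and Sox9 was the most abundant, the level was 407, 449 and 313 CPM in Veh, 127, 98.2 and 124 CPM in rhWnt3a, and 86.1, 90.8 and 139 CPM in rhWnt3aOSMI. The sum over 4 smooth muscle and myofibroblast markers, led by Acta2, was 2239, 2634 and 2641 CPM in Veh, 507, 671 and 481 CPM in rhWnt3a, and 1176, 1166 and 584 CPM in rhWnt3aOSMI. The sum over 8 adipocyte markers, led by Cebpa, was 65.0, 73.3 and 83.2 CPM in Veh, 33.0, 43.8 and 37.0 CPM in rhWnt3a, and 45.0, 42.1 and 42.8 CPM in rhWnt3aOSMI. Cebpa itself did not fall, with means of 25.9 CPM in Veh, 26.5 CPM in rhWnt3a and 29.7 CPM in rhWnt3aOSMI. The 3 tendon markers, led by Scx and with Tnmd at no more than 1 count, summed to between 17.3 and 22.3 CPM in the Veh and rhWnt3a libraries and between 9.79 and 11.5 CPM in rhWnt3aOSMI. In bulk RNA, fewer cells of a type and less RNA per cell cannot be told apart, and the part of such shifts in the values of the 9 genes was not tested.

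A gene was called where edgeR's quasi-likelihood test gave a Benjamini-Hochberg adjusted p below 0.05 and a log2 fold change beyond 0.5 in either direction. Of the 9 genes, 8 passed the filter on low counts, and Alpl did not. In rhWnt3a against Veh, 1 of the 8 was called, Twist1, which was higher, beside 8.78% of all genes tested (2.92% higher and 5.86% lower). In rhWnt3aOSMI against rhWnt3a, 1 of the 8 was called, Postn, which was lower, beside 4.74% of all genes (1.69% higher and 3.05% lower). In rhWnt3aOSMI against Veh, 3 of the 8 were called, Twist1 higher and Postn and Spp1 lower, beside 14.2% of all genes (4.84% higher and 9.34% lower). Of all genes called, 35.69% were higher in rhWnt3aOSMI against rhWnt3a and 34.14% in rhWnt3aOSMI against Veh, or 48.24% and 44.8% when library totals replaced the TMM factors that scale the libraries. The median log2 fold change of the 8 was -0.10, -0.35 and -0.13 in these comparisons, beside 0.04, -0.01 and -0.01 over all genes. The comparisons share libraries, rhWnt3a in the first and second, Veh in the first and last, and rhWnt3aOSMI in the second and last, so their values stand side by side and are not independent. With 3 libraries against 3, an exact permutation test of a single gene cannot give a p below 0.1.

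**Figure D1:**
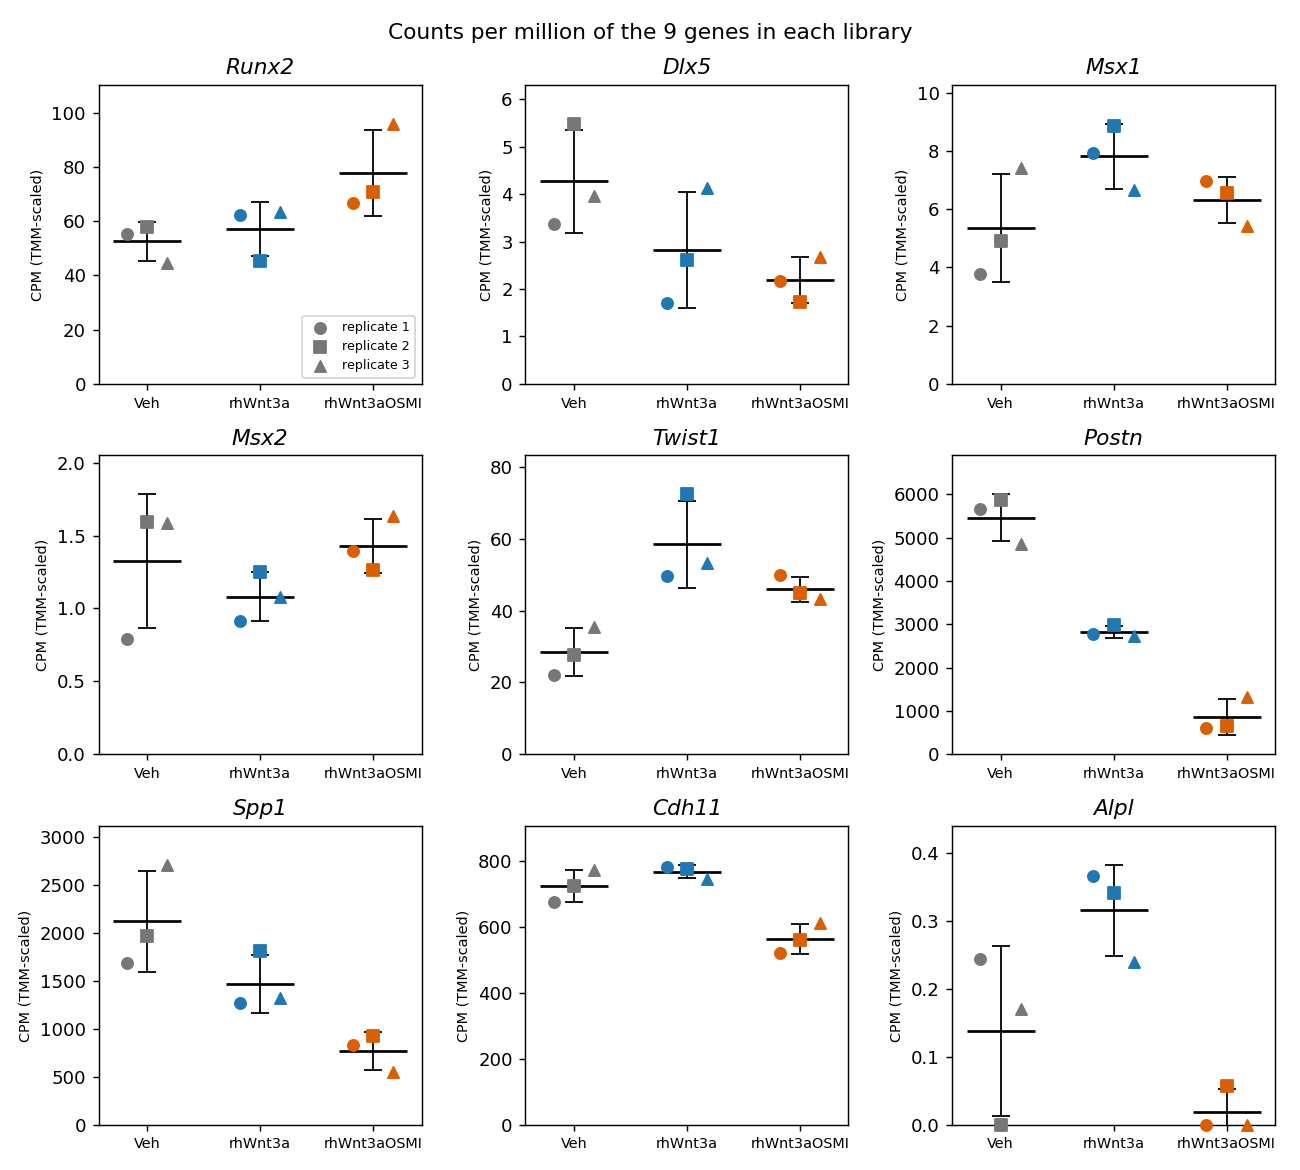
CPM (scaled by TMM factors, axis from 0) of each of the 9 genes in each library, by group, with symbols for replicates 1 to 3, horizontal bars for the group mean and error bars for the SD (n = 3). Postn stepped down from Veh to rhWnt3a to rhWnt3aOSMI with no overlap between groups, while Twist1 lay higher in both treated groups than in Veh.

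The regulators come first. Runx2 (ENSMUSG00000039153, chromosome 17, 44495987 to 44814797, minus strand, mm10) had 904, 909 and 787 counts in Veh, 1024, 799 and 1061 in rhWnt3a, and 1101, 1230 and 1644 in rhWnt3aOSMI. Veh and rhWnt3a overlapped, and the 3 rhWnt3aOSMI libraries lay above all others on the CPM scale, with replicate 3 the highest. The mean level was 52.5 ± 7.09 CPM (SD, n = 3) in Veh, 57.1 ± 10.1 CPM in rhWnt3a and 77.7 ± 15.9 CPM in rhWnt3aOSMI. No comparison was called for Runx2. The log2 fold change of rhWnt3aOSMI against Veh was 0.56 ± 0.19 (SE), with an edgeR adjusted p of 0.0758, and that against rhWnt3a was 0.44 ± 0.19, with an adjusted p of 0.203. The value against Veh passed in 3 of 18 alternative fits, including 0.59 with an adjusted p of 0.0466 without rhWnt3a replicate 2, and was 0.24 without the 3 libraries that stood apart (adjusted p from 0.0111 to 0.194 over these fits). Runx2 has long transcripts (8837 bases of exons), and in each group the libraries with positive scores on the length-related axis had the lower Runx2 level. With a smooth trend on gene length removed from each library, an alternative chosen after seeing the data, the value was 0.39 against Veh, with an adjusted p of 0.0529, and 0.29 against rhWnt3a. The value against rhWnt3a was 0.27 without rhWnt3aOSMI replicate 3 and 0.12 without the 3 libraries that stood apart. The span of the gene also overlaps that of Supt3 on the opposite strand, which had 152 to 241 counts. Whether exons of both genes overlap was not tested, and whether reads were counted by strand is not stated. Reads of any shared exon could not be told apart, and the Runx2 level is uncertain to that extent.

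**Figure D2:**
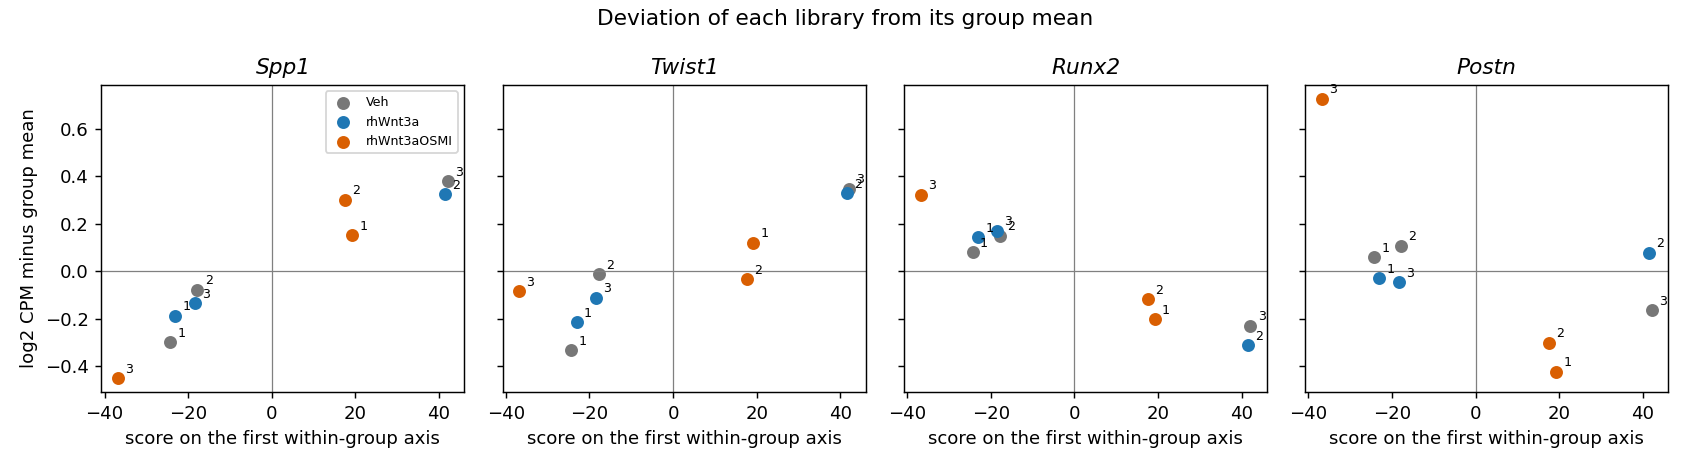
Deviation of each library from its group mean in log2 CPM for Spp1, Twist1, Runx2 and Postn (vertical axis) against the library's score on the first axis of within-group variation (horizontal axis), with a number for the replicate. Spp1 deviated upward and Runx2 downward in the 4 libraries with positive scores.

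Dlx5 (ENSMUSG00000029755, chromosome 6, 6877805 to 6882085, minus strand) was a low-count gene, with 55, 86 and 70 counts in Veh, 28, 46 and 69 in rhWnt3a, and 36, 30 and 46 in rhWnt3aOSMI. Every rhWnt3aOSMI library lay below every Veh library, and the rhWnt3a libraries spanned both ranges. The level was 4.27 ± 1.09 CPM (SD, n = 3) in Veh and 2.19 ± 0.480 CPM in rhWnt3aOSMI, a log2 fold change of -0.96 ± 0.34 (SE) with an edgeR adjusted p of 0.0938, which did not pass. It passed, at -0.96 with an adjusted p of 0.0464, with no filter on low counts, and at -1.22 with 0.00954 without the 3 libraries that stood apart, where the axis and the group cannot be told apart, and the adjusted p ranged up to 0.285 over the alternatives.

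Msx1 (ENSMUSG00000048450, chromosome 5, 37820485 to 37824583, minus strand) had 62, 77 and 131 counts in Veh, 130, 156 and 111 in rhWnt3a, and 115, 114 and 93 in rhWnt3aOSMI. Veh replicates 1 and 2 were the lowest of the 9 libraries, and Veh replicate 3 lay within the range of the treated libraries, so the groups overlapped. The log2 fold change of rhWnt3a against Veh was 0.54 ± 0.25 (SE), with an edgeR adjusted p of 0.276. Without Veh replicate 1 the value was 0.34 with an edgeR adjusted p of 0.618, the highest over the alternatives. Without Veh replicate 3 it was 0.85 with 0.0483, and without the 3 libraries that stood apart 0.71 with 0.00972. Msx2 (ENSMUSG00000021469, chromosome 13, 53466884 to 53473074, minus strand) had between 13 and 28 counts in every library. Its rhWnt3a and rhWnt3aOSMI libraries did not overlap, at 0.913 to 1.25 CPM and 1.26 to 1.63 CPM, but with 22 counts in both rhWnt3a replicate 2 and rhWnt3aOSMI replicate 2 this order was within counting error. Its log2 fold changes were -0.29, 0.40 and 0.11, none called, and the standard error of 0.34 in the first exceeded the size of that difference. The first ranged from -0.55 without Veh replicate 1 to -0.12 without Veh replicate 2, and was -0.13 without Veh replicate 3 and -0.15 without rhWnt3a replicate 1.

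Twist1 (ENSMUSG00000035799, chromosome 12, 33957671 to 33959829, plus strand) was the regulator that passed the test. It had 362, 434 and 628 counts in Veh, 815, 1272 and 891 in rhWnt3a, and 825, 781 and 742 in rhWnt3aOSMI. Every treated library lay above every Veh library, rhWnt3a replicate 2 was the highest, and the rhWnt3a and rhWnt3aOSMI groups overlapped. The level rose from 28.4 ± 6.74 CPM (SD, n = 3) in Veh to 58.4 ± 12.2 CPM in rhWnt3a, 2.05-fold, with a log2 fold change of 1.04 ± 0.20 (SE) and an edgeR adjusted p of 0.00943. It was 46.0 ± 3.47 CPM in rhWnt3aOSMI, 1.62-fold above Veh, with a log2 fold change of 0.69 ± 0.20 and an adjusted p of 0.0430. Between rhWnt3aOSMI and rhWnt3a the log2 difference was -0.35, with a 95% confidence interval from -0.79 to 0.10 and an adjusted p of 0.326. That difference was -0.14 without rhWnt3a replicate 2 and -0.05 with the trend on gene length removed, and Twist1 is short (1628 bases), with its highest level in each group in a library with a positive score. The call in rhWnt3a had an adjusted p of 0.0521 without Veh replicate 2, and that in rhWnt3aOSMI was lost without Veh replicate 1 (0.124), Veh replicate 2 (0.114), rhWnt3a replicate 3 (0.0662), rhWnt3aOSMI replicate 1 (0.109), rhWnt3aOSMI replicate 2 (0.0795) or rhWnt3aOSMI replicate 3 (0.0585). The log2 fold change stayed at 1.04 in the former, and in the latter lay between 0.56, without Veh replicate 1, and 0.74, without rhWnt3aOSMI replicate 2. A replicate block also ended the call in rhWnt3aOSMI, at 0.71 with an edgeR adjusted p of 0.082. Without the 3 libraries that stood apart, the log2 fold changes were 1.01 and 0.89, and both were called, the second under the limit on the axis given above (adjusted p from 1.41e-07 to 0.0521 and from 7.05e-07 to 0.124 over the alternatives).

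Twist1 was called against Veh in both treated groups, and the sequence before its start is shown for that reason. It is the 250 bases before the RefSeq start, chr12:33957421-33957670, plus strand, GRCm38.p6, and holds no exon of the annotation. Capitals mark the letters of a TATA box, TATAAA, 126 bases before the start.
Twist1: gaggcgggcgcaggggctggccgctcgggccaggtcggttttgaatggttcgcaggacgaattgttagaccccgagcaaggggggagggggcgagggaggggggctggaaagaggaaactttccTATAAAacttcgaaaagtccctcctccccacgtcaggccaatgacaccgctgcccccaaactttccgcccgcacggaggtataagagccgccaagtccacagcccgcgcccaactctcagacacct

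The matrix genes Postn and Spp1 had the largest log2 fold changes of the 8 genes tested in both comparisons of rhWnt3aOSMI, while in rhWnt3a against Veh that of Twist1 was larger. Postn (ENSMUSG00000027750, chromosome 3, 54361109 to 54391037, plus strand) had 92807, 92060 and 85843 counts in Veh, 45536, 52447 and 45720 in rhWnt3a, and 9906, 11370 and 22835 in rhWnt3aOSMI. The 3 groups did not overlap, and rhWnt3aOSMI replicate 3 lay well above the other pair of its group. Between non-overlapping groups, 2 of the 8 genes differed in rhWnt3a against Veh, Twist1 upward and Postn downward, beside 12.2% and 14.2% of all genes in those directions. In rhWnt3aOSMI against rhWnt3a, 2 lay wholly higher, Runx2 and Msx2, beside 16.7% of all genes, and 3 wholly lower, Postn, Spp1 and Cdh11, beside 17% of all genes. In rhWnt3aOSMI against Veh, 2 lay wholly higher, Runx2 and Twist1, beside 19.3% of all genes, and 4 wholly lower, Dlx5, Postn, Spp1 and Cdh11, beside 19.5% of all genes.

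The level of Postn was 5463 ± 536 CPM (SD, n = 3) in Veh, 2829 ± 133 CPM in rhWnt3a and 861 ± 408 CPM in rhWnt3aOSMI. It fell 3.29-fold from rhWnt3a to rhWnt3aOSMI, a log2 fold change of -1.72 ± 0.29 (SE) with an edgeR adjusted p of 0.0112. It fell 6.35-fold from Veh to rhWnt3aOSMI, a log2 fold change of -2.67 ± 0.30 with an adjusted p of 0.000401. From Veh to rhWnt3a the log2 fold change was -0.95 ± 0.28, and the adjusted p of 0.0722 did not pass, although every rhWnt3a library lay below every Veh library. DESeq2 called this comparison, with an adjusted p of 0.0137, as did edgeR without rhWnt3aOSMI replicate 3, with 0.00129, in a range from 3.75e-10 to 0.23 over the alternatives. A fit of the 6 Veh and rhWnt3a libraries alone also called it, at -0.98 with an edgeR adjusted p of 0.00532. It was called in 6 of 18 alternative fits. The call between rhWnt3aOSMI and rhWnt3a was lost without rhWnt3aOSMI replicate 1, at -1.47 with an adjusted p of 0.0548, and without rhWnt3aOSMI replicate 2, at -1.51 with 0.0667. The summed stromal markers above moved in the same direction as Postn across the groups. Pdgfra and Pdgfrb were called in no comparison, while 4 of the 8 stromal markers tested were called lower in rhWnt3a against Veh. In rhWnt3aOSMI against rhWnt3a 4 were also called lower. The part of these markers in the Postn result was not tested. Without the 3 libraries that stood apart, the log2 fold changes were -1.10, -2.14 and -3.24 in rhWnt3a against Veh, rhWnt3aOSMI against rhWnt3a and rhWnt3aOSMI against Veh, and all were called, the last pair under the same limit. With the trend on gene length removed they were -0.95, -1.91 and -2.86, with adjusted p of 0.034, 0.00236 and 6.8e-05.

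Spp1 (ENSMUSG00000029304, chromosome 5, 104435118 to 104441050, plus strand) had 27695, 30948 and 47915 counts in Veh, 20945, 31966 and 22111 in rhWnt3a, and 13847, 16188 and 9456 in rhWnt3aOSMI. Veh and rhWnt3a overlapped through the high rhWnt3a replicate 2, and every rhWnt3aOSMI library lay below all others. The level was 2124 ± 526 CPM (SD, n = 3) in Veh, 1471 ± 301 CPM in rhWnt3a and 772 ± 197 CPM in rhWnt3aOSMI. Spp1 fell 2.75-fold from Veh to rhWnt3aOSMI, a log2 fold change of -1.46 ± 0.26 (SE) with an edgeR adjusted p of 0.00459, and it was called whichever of the 9 libraries was left out. From rhWnt3a to rhWnt3aOSMI the log2 fold change was -0.93 ± 0.26, with an adjusted p of 0.0691, and from Veh to rhWnt3a it was -0.53 ± 0.25, with an adjusted p of 0.291. The latter was -0.31 without Veh replicate 3. DESeq2 called the value from rhWnt3a to rhWnt3aOSMI, with an adjusted p of 0.00526, in a range from 1.93e-05 to 0.204 over the alternatives. The annotated transcript Gm42793 overlaps Spp1 on the same strand and shares 181 bases with it, but had at most 49 counts.

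Spp1 is short (1648 bases) and its 9 values followed the length-related axis within each group: its deviation from the group mean was 0.38 in Veh replicate 3 and 0.32 in rhWnt3a replicate 2 but -0.45 in rhWnt3aOSMI replicate 3, on the log2 scale. With the trend on gene length removed, the log2 fold change of rhWnt3aOSMI against rhWnt3a was -0.67, with an adjusted p of 0.0214, and that of rhWnt3a against Veh was -0.56, with an adjusted p of 0.0321. Without the 3 libraries that stood apart, the value in rhWnt3a against Veh was -0.53 and was called, with an edgeR adjusted p of 2.03e-05. In the same 6 libraries it was -0.56 in rhWnt3aOSMI against rhWnt3a and -1.09 in rhWnt3aOSMI against Veh, and both were called. The limit on those 6 libraries applies to this short gene.

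The sequences before the main starts of Postn and Spp1 are shown because these were the genes of the 9 called lower. Both are the 250 bases before a RefSeq start in GRCm38.p6, plus strand, without any annotated exon: chr3:54360857-54361106 for Postn and chr5:104434861-104435110 for Spp1. Capitals mark matches to the TATA box letters TATAAA in both and, in Spp1, to the RUNX letters AACCACA. The TATA letters lie 26 bases before the start of Postn and 211 before that of Spp1, and the RUNX letters 129 before the start of Spp1.
Postn: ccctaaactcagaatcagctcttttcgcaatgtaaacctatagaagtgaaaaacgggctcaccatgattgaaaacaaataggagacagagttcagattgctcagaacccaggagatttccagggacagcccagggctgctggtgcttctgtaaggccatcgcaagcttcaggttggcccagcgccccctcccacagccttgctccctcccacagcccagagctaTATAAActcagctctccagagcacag
Spp1: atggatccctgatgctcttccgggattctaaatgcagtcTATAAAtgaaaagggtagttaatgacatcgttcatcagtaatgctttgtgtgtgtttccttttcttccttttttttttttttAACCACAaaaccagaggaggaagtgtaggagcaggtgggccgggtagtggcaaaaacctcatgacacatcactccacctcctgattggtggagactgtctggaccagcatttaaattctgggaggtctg

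Promoter windows were given for 7 of the 9 genes, and Dlx5 and Cdh11 were not matched. Annotated exons cover 170 of the 250 bases for Runx2 and all 250 for Msx2 and for the downstream start of Spp1, so these lie partly or wholly inside transcripts. Letters were searched on both strands of the 250 bases before each start. Postn, Spp1 and Alpl have 2 windows each and the other genes 1, whereas the shares below are per window, so the genes' counts and these shares are not on the same footing. RUNX letters, ACCACA with or without a further A before them, were found for Runx2 and Spp1, beside 14.05% of 32851 windows over all genes. TATAAA was found for Twist1, Postn, Spp1 and Alpl, beside 12.37% of windows, in Alpl on the reverse strand before a second start 29909 bases from the annotated one. Homeobox letters, TAATTA or TAATTG, were found for Msx2 and before an upstream start of Postn and a downstream start of Spp1, beside 11.25% of windows. Alpl held the E-box letters CAGCTG, beside 28.12% of windows with CAGATG or its reverse CATCTG or CAGCTG or CATATG, and the BMP-related letters GGCGCC, beside 9.59%. The TCF/LEF letters CTTTGAT or CTTTGAA were in none of the 7 genes' windows, beside 7.48% of all windows. Such matches describe letters and are not binding sites, and the absence of a match says nothing of the factor.

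Cdh11 (ENSMUSG00000031673, chromosome 8, 102632095 to 102785642, minus strand) had 11066, 11359 and 13648 counts in Veh, 12850, 13665 and 12436 in rhWnt3a, and 8593, 9790 and 10480 in rhWnt3aOSMI. Veh and rhWnt3a overlapped, and every rhWnt3aOSMI library lay below all others. The level was 724 ± 48.0 CPM (SD, n = 3) in Veh, 768 ± 20.5 CPM in rhWnt3a and 564 ± 45.6 CPM in rhWnt3aOSMI. The log2 fold change of rhWnt3aOSMI against rhWnt3a was -0.44 ± 0.13 (SE), with an edgeR adjusted p of 0.0880, and passed neither threshold. DESeq2 gave an adjusted p of 0.00388 with the value at -0.44, and without the 3 libraries that stood apart the value was -0.50, with an adjusted p of 1.4e-05, past both thresholds, in a range up to 0.259 over the alternatives. Cdh11 is long (8904 bases), and in those 6 libraries the axis and the group cannot be told apart. With the trend on gene length removed the value was -0.62, with an adjusted p of 0.0363. Cdh11 transcripts share stretches of 221 to 990 bases, at 91.1% to 96.3% identity, with 8 other annotated genes, which had at most 540 counts each in any library, so its level is uncertain by reads that could belong to either.

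**Figure D3:**
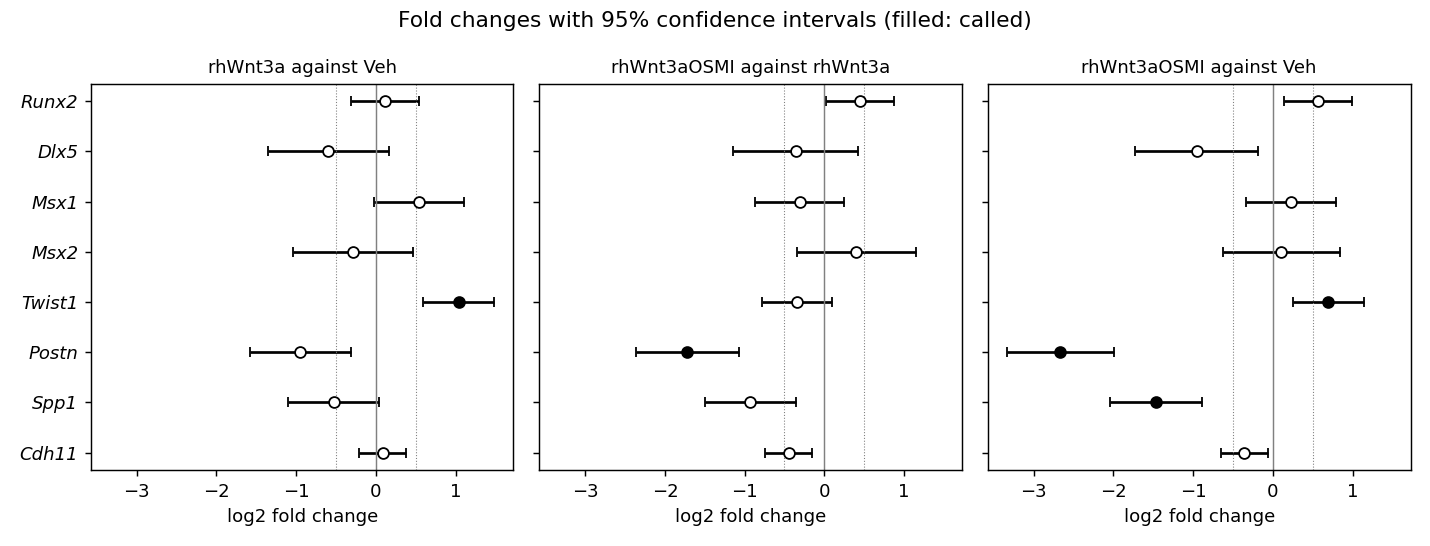
Log2 fold changes (horizontal axis) of the 8 genes tested, with 95% confidence intervals, in the 3 comparisons. Filled points were called, and dotted lines mark 0.5 in either direction. The interval of Postn lay furthest below 0 in both comparisons of rhWnt3aOSMI, and that of Twist1 was above 0 against Veh in both treated groups.

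Alpl (ENSMUSG00000028766, chromosome 4, 137741733 to 137796384, minus strand) was almost silent. It had 4, 0 and 3 counts in Veh, 6, 6 and 4 in rhWnt3a, and 0, 1 and 0 in rhWnt3aOSMI. Every rhWnt3aOSMI library lay below every rhWnt3a library, and the Veh libraries overlapped both. The gene was not tested after the filter. The summed counts, scaled for library size, were 2.24 times as high in rhWnt3a as in Veh, with an exact 95% counting interval from 0.872 to 6.44, and the ratio of rhWnt3aOSMI to rhWnt3a was 0.0620, from 0.00148 to 0.399. The ratio of rhWnt3aOSMI to Veh was 0.139, from 0.00309 to 1.08, an interval that includes no difference. These intervals cover counting error only and not the spread between cultures.

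Levels of different genes were compared per length, as the authors' FPKM (fragments scaled to gene length and library total). In Veh the order was Spp1 at 1270 ± 301 FPKM (SD, n = 3), Postn at 620 ± 65.8, Cdh11 at 80.2 ± 4.47, Twist1 at 17.2 ± 3.89, Runx2 at 5.87 ± 0.838, Dlx5 at 1.86 ± 0.475, Msx1 at 1.71 ± 0.571, Msx2 at 0.398 ± 0.135 and Alpl at 0.0338 ± 0.0308 FPKM. Dlx5 and Msx1 overlapped in Veh, and every other pair of neighbours down to Msx2 was separated in all 3 libraries. In rhWnt3a the order of Dlx5 and Msx1 was the other way round, at 1.22 ± 0.526 and 2.47 ± 0.374 FPKM, and did not overlap. In rhWnt3aOSMI the distance between Postn and Cdh11 had narrowed, at 97.9 ± 48.5 and 62.4 ± 6.14 FPKM, and their ranges met, although Postn was above Cdh11 in each library. By mean FPKM, Spp1 ranked 18 and Postn 35 among all genes in Veh, and 29 and 331 in rhWnt3aOSMI.

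**Figure D4:**
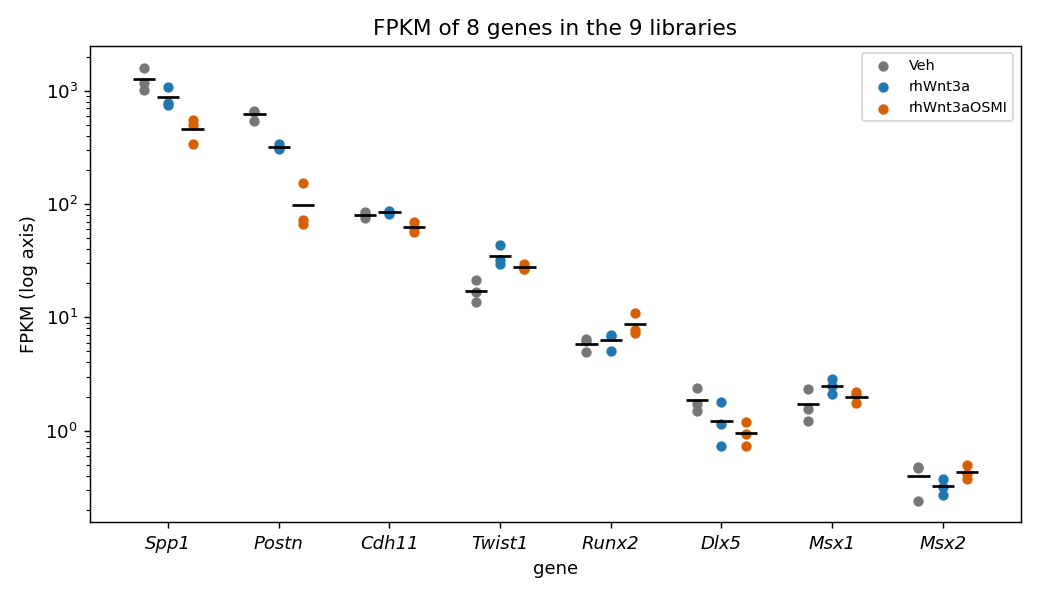
FPKM of 8 of the genes (log axis, Alpl left out because it has values of 0) in each of the 9 libraries, by group, with short bars for the group means. Spp1 and Postn had the highest levels in Veh, and of the rhWnt3aOSMI libraries replicates 1 and 2 had Postn near the level of Cdh11, with replicate 3 above it.

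The genes whose profiles were most like those of the 8 were found by Pearson's r of log2 CPM across the 9 libraries, among 11574 or 11575 genes with an average log2 CPM above 1. These values are descriptions over libraries that share the axis above. They were Angpt1 (0.994), Arhgap24 and Klf15 (both 0.985) for Postn, and Pccb (0.987), Nudt9 (0.986) and Prrg2 (0.985) for Spp1. For Twist1 they were Gm26917 (0.991), Wisp2 (0.979) and Eva1c (0.968). For Runx2 they were Epb41l1 (0.993), Zfp809 (0.990) and Foxn3 (0.989), each with its highest level in rhWnt3aOSMI replicate 3. For Cdh11 they were Pid1 (0.963), Snai1 (0.960) and Rabl3 (0.956), and for Msx1 Serpinf1 (0.972), Ciapin1 (0.968) and Rars (0.964). The low-count genes had weaker neighbours, Rtl8c (0.918), Nek8 (0.906) and Tmem8 (0.889) for Dlx5 and Slc25a22 (0.932), Atf5 (0.899) and Arl8a (0.845) for Msx2. Among the 8 themselves, r was -0.930 between Runx2 and Spp1, 0.868 between Msx1 and Twist1 and 0.833 between Postn and Cdh11.

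Genes around these 9 were counted from lists, and in these counts a gene that rose or fell is one that was called. Over all genes tested, 2.92% were called higher and 5.86% lower in rhWnt3a against Veh, with a median log2 fold change of 0.04, 1.69% and 3.05% in rhWnt3aOSMI against rhWnt3a, with a median of -0.01, and 4.84% and 9.34% in rhWnt3aOSMI against Veh, with a median of -0.01. Among 16 other osteoblast transcription factors and cofactors, 12 were tested and 2 rose with rhWnt3a against Veh. Prrx1, an early mesenchymal homeobox gene, rose by 0.88 on the log2 scale (edgeR adjusted p = 0.00125), and Zeb1, a zinc finger repressor, from 128 to 254 CPM (adjusted p = 0.0320). Between rhWnt3aOSMI and rhWnt3a edgeR called 0 of the 12, DESeq2 called 1, and 1 passed at an unadjusted p. Over all genes, of which edgeR tested 14004, DESeq2 called 1289 there and 2271 passed at an unadjusted p. The median of the 12 was -0.04 and 0.09 in these comparisons. Cbfb, which encodes the partner subunit of RUNX2, was at 0.33 and -0.52, and edgeR called it in neither. Against Veh, 3 of the 12 were called higher in rhWnt3aOSMI.

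Of 19 bone matrix and mineralization genes in the table, 11 were tested. With rhWnt3a against Veh 1 rose, Phospho1, a phosphatase gene (edgeR adjusted p = 0.0399), and the median of the 11 was -0.15. Phospho1 had 3, 3 and 6 counts in Veh and 22, 15 and 14 in rhWnt3a, so no fold is given for it. In rhWnt3aOSMI against rhWnt3a 3 fell and 1 rose, with a median of -0.78. Sparc, encoding osteonectin, fell by 1.39 on the log2 scale (adjusted p = 0.00182), and Enpp1, whose enzyme makes pyrophosphate, fell by 1.35 (adjusted p = 0.00992). The phosphate transporter gene Slc20a2 rose by 0.64 (adjusted p = 0.0267). Ogn, named after its values were seen to complete this count, fell by 0.78 (adjusted p = 0.0424). DESeq2 called 4 of the 11 there, and 8 passed at an unadjusted p, beside 1289 and 2271 over all genes. Col1a1, the main bone collagen gene, was at -0.78 in the same comparison with an adjusted p of 0.191. In rhWnt3aOSMI against Veh 5 of the 11 fell and 1 rose.

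Of 10 relatives of periostin and cadherin 11 and catenins, 5 were tested, with medians of -0.37 in rhWnt3a against Veh and 0.24 in rhWnt3aOSMI against rhWnt3a. The 1 gene called was Tgfbi, a close relative of Postn, which had 34, 13 and 28 counts in Veh, 7 in each rhWnt3a library, and 0, 0 and 1 in rhWnt3aOSMI. It was lower in rhWnt3a than in Veh (edgeR adjusted p = 0.0367) and lower again in rhWnt3aOSMI (adjusted p = 0.0335). Of 9 receptors of osteopontin, 8 were tested, with medians of -0.30 and -0.03. With rhWnt3a the integrin gene Itga5 fell by 0.72 (adjusted p = 0.0251) and Itga8 fell by 0.95 (adjusted p = 0.0245), and Itga9 rose by 1.36 (adjusted p = 0.0424). In rhWnt3aOSMI against rhWnt3a, Itga8 was higher by 1.65 (adjusted p = 0.00452) and Itga9, with no more than 35 counts, fell by 2.25 (adjusted p = 0.0123).

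Of 10 BMP response genes, 9 were tested and 3 fell with rhWnt3a against Veh, with a median of -0.79. Id3 fell by 2.11 (edgeR adjusted p = 0.00357), Id4 fell by 3.81 (adjusted p = 0.00213) and Atoh8 fell by 2.89 (adjusted p = 0.00121). Id4 had 62, 82 and 94 counts in Veh and 4, 7 and 6 in rhWnt3a. Atoh8 had 84, 62 and 59 in Veh and 14, 8 and 6 in rhWnt3a. The sizes of these last folds therefore rest on few counts. Between rhWnt3aOSMI and rhWnt3a edgeR called 0 of the 9, DESeq2 called 1, and 3 passed at an unadjusted p, with a median of 0.27. DESeq2 and an unadjusted p gave 1289 and 2271 genes over the whole set there. Of 13 Wnt response genes, 10 were tested and 5 rose with rhWnt3a, with a median of 1.79. Axin2, a feedback inhibitor of the pathway, rose by 5.06 (adjusted p = 3.67e-05), Nkd2 by 1.31 (adjusted p = 0.00233) and Lef1 by 2.28 (adjusted p = 0.00842). The other 2 had at most 4 counts in any Veh library, so no fold is given for them, and Axin2 and Lef1 had at most 14 and 13 there. Tnfrsf19 had 3, 2 and 1 counts in Veh and 98, 104 and 86 in rhWnt3a (adjusted p = 8.80e-05). Tcf7, named after its values were seen, had 1, 1 and 4 counts in Veh and 13, 11 and 19 in rhWnt3a (adjusted p = 0.0130). In rhWnt3aOSMI against rhWnt3a the median of the 10 was -0.71, Tnfrsf19 was the 1 gene called and fell by 2.32 (adjusted p = 0.00582), and Axin2 was at -0.51 with an adjusted p of 0.280. DESeq2 called 3 of the 10 there, and 5 passed at an unadjusted p, beside 1289 and 2271 over all genes.

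Marker lists were counted in the same way. With rhWnt3a against Veh 5 of 6 chondrocyte markers tested fell, among them Col2a1, which fell by 3.40 (edgeR adjusted p = 1.17e-05), and so did 3 of 3 smooth muscle markers, among them Acta2, which fell by 2.18 (adjusted p = 0.000871), and 3 of 4 adipocyte markers, among them Fabp4, which fell by 2.49 (adjusted p = 0.000972). The medians of these lists were -2.42, -2.18 and -2.11. Of 8 stromal markers 4 fell, with a median of -0.57, among them Cxcl12, which fell by 2.31 (adjusted p = 1.64e-05). In rhWnt3aOSMI against rhWnt3a 4 of the 8 fell, with a median of -0.84, among them Ly6a, which fell by 1.73 (adjusted p = 0.00274). Cxcl12 lay the other way and was not called, at 0.43 (edgeR adjusted p = 0.0971), with every rhWnt3aOSMI library above every rhWnt3a library. Of the tendon markers Scx fell by 1.77 (adjusted p = 0.00449). Of the 4 adipocyte markers 1 was called in this comparison, with a median of 0.40. It was Pparg, the adipocyte regulator, which fell by 1.73 with rhWnt3a against Veh (adjusted p = 8.80e-05), was higher by 0.63 in rhWnt3aOSMI than in rhWnt3a (adjusted p = 0.0374) and was lower than Veh there, at -1.10 (adjusted p = 0.000835). Fabp4 was at -1.06 between rhWnt3aOSMI and rhWnt3a and was not called, with an adjusted p of 0.109. Of the 6 chondrocyte and 3 smooth muscle markers edgeR called 0 between these groups, and the medians were -0.36 and 0.47. DESeq2 and an unadjusted p each called 1 in each list, beside 1289 and 2271 over all genes.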

How the data were processed

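The authors deposited a table with read counts and FPKM of every gene in each of the 9 libraries. The submitters' processing notes name CASAVA, fastp, HISAT2 2.0.5, featureCounts 1.5.0-p3 and the mm10 build. Columns of the authors' own comparisons, which hold group means, fold changes and p-values, were not used. Here edgeR 4.0.16 in R 4.3.3 was fitted to the deposited counts of all 9 libraries (default expression filter, 14004 genes kept, TMM factors, quasi-likelihood F test on both sides, Benjamini-Hochberg adjustment over all genes tested). DESeq2 1.42.0 was an alternative. The log scale used a prior count of 2. Standard errors were the size of the log2 fold change divided by the square root of F. The steps were tested on simulated data. Similar transcripts were searched with BLAST 2.17.0, and promoter windows came from RefSeq, GRCm38.p6. Named genes were the 9, up to 4 called genes of each list by smallest adjusted p, Sp7, Bglap, Ibsp, Col1a1, Cbfb and Axin2, and the 3 genes most correlated with each of the 8 tested. Outside this rule, Ogn, Tcf7, Pdgfra, Pdgfrb and the cell type markers given for their list's highest or lowest levels were named after their values were seen. The 9 genes and the lists were chosen with earlier results of these data known. Alternatives covered scaling, filters, thresholds, the libraries fitted, a replicate block, gene length and each library left out.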

Additional observations from a re-analysis of the deposited data

How the results depend on the processing

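Of 504 log2 fold changes of the 8 genes over 21 alternative settings, 464 kept their direction and side of the thresholds, 27 newly passed, 11 no longer passed and 2 changed direction. The latter were low-count genes: Msx2 in rhWnt3aOSMI against Veh was at -0.131 without Veh replicate 1 (up to 0.299 with another library left out), and Dlx5 in rhWnt3aOSMI against rhWnt3a at 0.0184 without rhWnt3a replicate 3 (down to -0.601). Settings with an unadjusted p, a log2 fold change beyond 1 or no fold threshold reused the main fit, so direction could not change in them. The 18 alternative fits named above leave these settings out. In the order rhWnt3a against Veh, rhWnt3aOSMI against rhWnt3a and rhWnt3aOSMI against Veh, leaving out a library gave 716 to 1506, 203 to 764 and 1218 to 2328 genes called, and 0 to 2, 0 to 1 and 2 to 4 of the 8. An unadjusted p gave 2155, 2271 and 3186 genes and 2, 2 and 5 of the 8. A log2 fold change beyond 1 gave 796, 380 and 1118 genes. Without the 3 libraries that stood apart there were 2557, 1789 and 3351 genes and 4, 3 and 5 of the 8. No filter gave 2, 2 and 5 of the 8, and 1552, 1481 and 2563 genes. DESeq2 called 1289 genes in rhWnt3aOSMI against rhWnt3a, and the 6 libraries of the comparison alone 345. DESeq2 called 2 of the 8 in each of the first pair of comparisons, and the 6 libraries alone called 2 in rhWnt3a against Veh, where these settings called 1547 and 1218 genes. Removing a trend on gene length, chosen after seeing the data, gave 3 of the 8 in each of the first pair, and 1523 and 991 genes. The cause was not tested.

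With a replicate block the genes called were 809, 233 and 1297. Twist1 in rhWnt3aOSMI against Veh was no longer called, with an edgeR adjusted p of 0.082. Its log2 fold change was 0.71 there and 0.69 in the main fit. Deviations of same-numbered libraries of different groups were correlated across genes with mixed sign, from -0.49 to 0.44. The length-related axis held 54.8% of the variance of these deviations, so the correlations cannot show whether same-numbered cultures were paired.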
